A study of Mus musculus with 12 samples.

Results

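The 3 Gadd45 genes and 6 genes of the p53 growth arrest pathway were followed in mouse dorsal root ganglia after nerve injury. They are Gadd45a, Gadd45b and Gadd45g, with Cdkn1a, Trp53, Mdm2, Bbc3, Bax and Ccng1, chosen by gene symbol as 9 of the 24060 genes in the expression files. The ganglia were from adult male C57BL/6J mice 9 to 10 weeks old. The injured groups were taken at day 1, day 3 and day 7 after spared nerve injury, and the uninjured group is labelled naive. There were 3 libraries in each of these 4 groups. In this operation the sural branch of the sciatic nerve is spared while its tibial and common peroneal branches are tied off and cut, so that a ganglion keeps neurons with uncut axons beside the cut ones. The labels give no genetic change in any group, name no sham operation, do not state which ganglia were taken, and do not say whether a library came from 1 animal or from pooled animals. The p-values therefore measure the spread between these libraries, which may be partly technical.

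Gadd45 proteins are small stress-inducible proteins with no enzyme activity of their own. They bind the kinase Map3k4, which feeds the p38 and JNK pathways, as well as Cdk1, Pcna, p21 and parts of the DNA demethylation machinery. The transcription factor p53, made from Trp53, is held at a low level by the ubiquitin ligase Mdm2 and is controlled mostly at the protein level. When p53 is active it drives p21 (Cdkn1a), an inhibitor of cyclin-dependent kinases, the death genes Bbc3 and Bax, cyclin G1 (Ccng1), Gadd45a and Mdm2 itself. Sensory neurons do not divide, whereas glia and macrophages of the ganglion can, and Gadd45a, Gadd45g and Cdkn1a can also be induced without p53.

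Gene values were RPKM, the number of reads scaled for gene length in kilobases and for library size, from libraries of 13626893 to 17952865 reads. A value of 1 read on a 1 kb gene equals 0.0557 to 0.0734 RPKM. A gene was tested where at least 3 libraries reached 1 RPKM, which left 14195 genes. Atf3, a transcription factor induced by axon injury, averaged 69.4 ± 10.7 RPKM at day 1, 90.9 ± 11.7 at day 3 and 55.8 ± 13.2 at day 7, against 2.36 ± 0.0266 in naive ganglia (SD, n = 3 each), so the injury labels hold in every library. All 12 sensory neuron markers were present in all groups, with a summed level of 970 to 1773 RPKM in injured libraries and 1402 to 1807 RPKM in naive libraries. Skeletal muscle transcripts summed to 24.2 RPKM in day 7 replicate 2 and 34.3 RPKM in naive replicate 1, and the 10 remaining libraries had 6.10 RPKM at most. The calls of the 9 genes, the counts of calls and the calls of the pathway genes named below were therefore also computed without both libraries.

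The promoter windows of the 3 genes that rose after injury are shown first. Matches to p53 sites were looked for only in windows of this kind, so sites elsewhere in or near a gene were not covered. Each window runs from 250 bases before to 50 bases after a transcript start, 5′ to 3′ on the strand of the gene, from RefSeq on GRCm38.p6. Capitals mark matches to the p53 decamer, the unit of which a full p53 site holds a pair. Gadd45a lies at chr6:67037358-67037657 on the minus strand, Gadd45g at chr13:51846425-51846724 on the plus strand, and the upstream and downstream starts of Cdkn1a at chr17:29090729-29091028 and chr17:29093519-29093818 on the plus strand.
Gadd45a: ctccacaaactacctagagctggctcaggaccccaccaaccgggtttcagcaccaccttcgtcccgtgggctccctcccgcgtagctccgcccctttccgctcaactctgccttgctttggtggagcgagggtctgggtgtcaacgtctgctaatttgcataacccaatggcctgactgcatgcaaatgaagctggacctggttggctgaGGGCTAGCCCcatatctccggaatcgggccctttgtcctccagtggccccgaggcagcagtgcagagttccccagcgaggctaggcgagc
Gadd45g: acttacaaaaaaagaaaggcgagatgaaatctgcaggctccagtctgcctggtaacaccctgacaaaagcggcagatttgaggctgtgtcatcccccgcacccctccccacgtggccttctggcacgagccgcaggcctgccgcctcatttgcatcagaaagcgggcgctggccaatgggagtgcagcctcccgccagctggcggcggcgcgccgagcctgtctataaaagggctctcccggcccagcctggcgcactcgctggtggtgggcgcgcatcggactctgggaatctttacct
Cdkn1a upstream start: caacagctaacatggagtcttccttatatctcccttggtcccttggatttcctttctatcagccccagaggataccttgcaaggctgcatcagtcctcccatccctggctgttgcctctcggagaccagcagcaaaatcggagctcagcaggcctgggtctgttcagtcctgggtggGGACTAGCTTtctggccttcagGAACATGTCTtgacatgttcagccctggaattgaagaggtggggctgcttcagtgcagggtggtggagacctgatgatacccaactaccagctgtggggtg
Cdkn1a downstream start: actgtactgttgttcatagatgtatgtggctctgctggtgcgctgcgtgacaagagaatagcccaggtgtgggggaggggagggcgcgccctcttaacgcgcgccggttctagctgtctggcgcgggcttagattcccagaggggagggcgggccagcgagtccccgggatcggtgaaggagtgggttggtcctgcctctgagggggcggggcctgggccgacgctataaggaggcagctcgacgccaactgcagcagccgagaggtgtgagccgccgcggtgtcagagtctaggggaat

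The Gadd45a window held 1 decamer, GGGCTAGCCC, 40 to 31 bases before the start. The upstream Cdkn1a window held 2, GGACTAGCTT and GAACATGTCT, at 73 to 64 and 51 to 42 bases before the start. Neither the Gadd45g window nor the downstream Cdkn1a window held one. All 9 genes had a window in the table, and the decamer was found on either strand in 6 of them, Gadd45a, Cdkn1a, Trp53, Mdm2, Bax and Ccng1. It was present in 8.36% of 32851 promoter windows of the mouse genome. The Cdkn1a pair, within 13 bases of each other, was a spacing found in 24 windows, or 0.0731%. The AP-1 motif TGANTCA, present in 7.81% of all windows, and the cyclic AMP response element TGACGTCA, present in 1.79%, occurred in no window of the 9 genes on either strand. These are exact matches of letters, so stretches with a mismatch, such as the one directly after GAACATGTCT, were not counted. A single decamer is not a full p53 site, and binding of p53 was not measured here. The part of p53 in the changes after injury was not tested.

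Of the 9 genes, Gadd45a, Gadd45g and Cdkn1a rose in the ganglion at all 3 times, by fitted folds of 8.24, 3.88 and 1.95 at day 1. No change of Trp53, Mdm2, Bax or Ccng1 passed the test at any time, and Gadd45b and Bbc3 were close to undetected in every library. Thus 7 of the 9 genes were tested, and 3 of these 7 were called higher at each of day 1, day 3 and day 7, where 2.6%, 3.72% and 2.32% of all 14195 genes were called higher. None of the 7 was called lower, where 0.831%, 1.95% and 0.599% of all genes were. A joint limma test for any difference among the 4 groups called the same 3 genes, Gadd45a, Gadd45g and Cdkn1a, and 4.78% of all genes. The calls are by limma's moderated test on log2(RPKM + 0.5) with Benjamini-Hochberg adjusted p under 0.05 over all genes tested, and fold changes on that scale understate the change of low genes. All 3 comparisons use the same naive libraries. In whole ganglia, more cells of a type cannot be told apart from more RNA per cell.

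**Figure D1:**
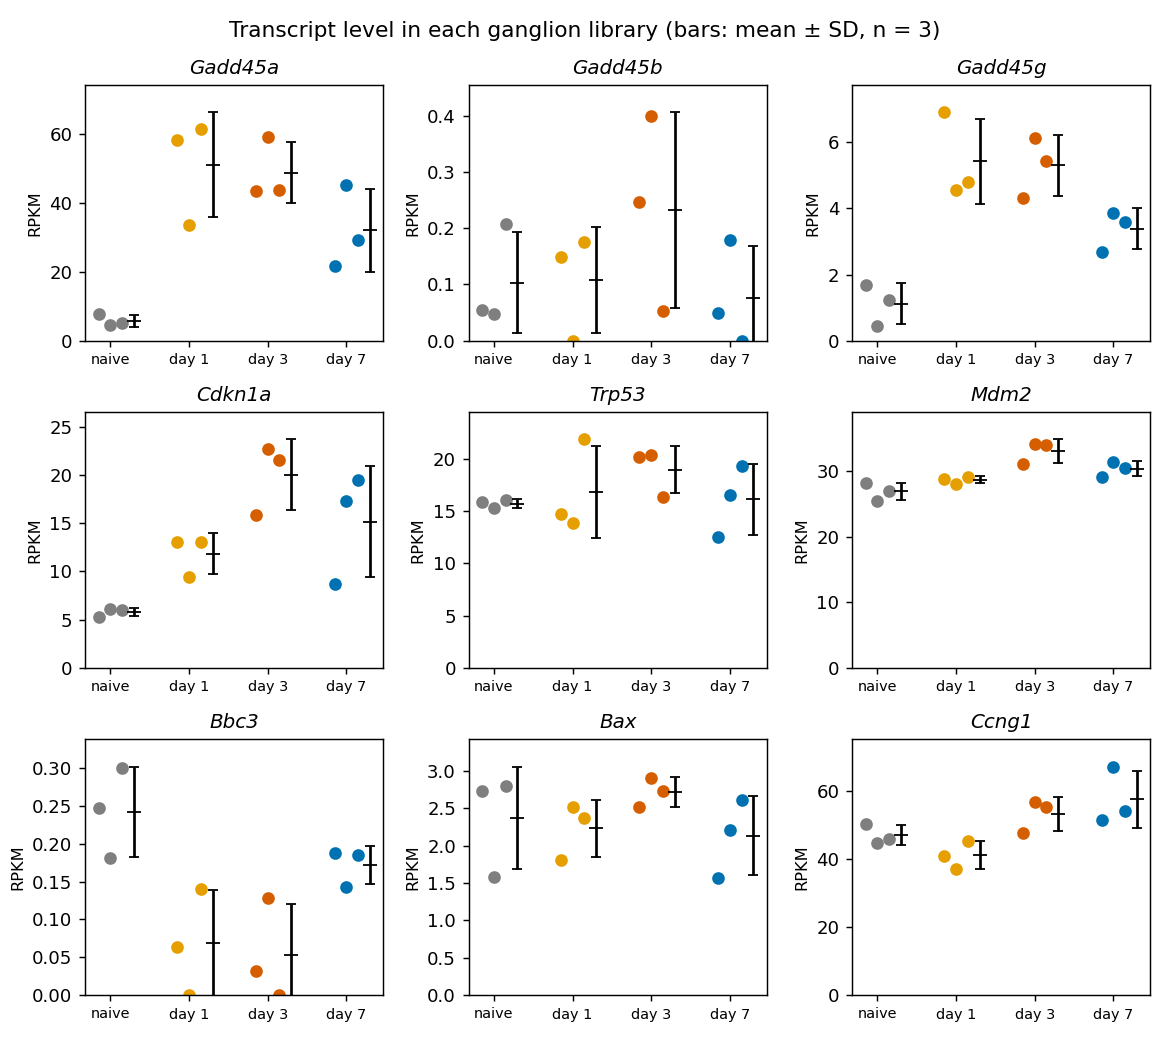
Level of each of the 9 genes in RPKM (vertical axes, linear, from 0) in every library, in the order naive, day 1, day 3 and day 7. Points are libraries, and bars are the mean and SD of 3 libraries, cut at 0 where the SD exceeds the mean. Gadd45a, Gadd45g and Cdkn1a lie above the naive libraries at all 3 times, while Gadd45b and Bbc3 stay under 1 RPKM.

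Gadd45a, the family member best known as a p53 and stress target, lies at chr6:67035096-67037457 on the minus strand (mm10, GENCODE M21). It measured 58.3, 33.5 and 61.4 RPKM at day 1, 43.5, 59.1 and 43.9 at day 3 and 21.7, 45.3 and 29.2 at day 7, against 7.75, 4.48 and 5.01 in naive ganglia. The lowest injured library, day 7 replicate 1, was above the highest naive library, naive replicate 1. The group means were 51.1 ± 15.3, 48.8 ± 8.88 and 32.0 ± 12.1 RPKM after injury and 5.75 ± 1.76 RPKM in naive ganglia (SD, n = 3 each). These rest on 428 to 1350 reads per injured library and 92 to 136 reads per naive library.

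The log2 fold change of Gadd45a was 3.04 at day 1 (SE 0.26, 95% confidence interval 2.48 to 3.60, limma adjusted p = 2.87e-05), 2.98 at day 3 (adjusted p = 2.03e-05) and 2.33 at day 7 (adjusted p = 0.000201). By p it stood at rank 22 of the 14195 genes at day 1, 40 at day 3 and 61 at day 7. Day 7 was lower than day 1 by a log2 difference of -0.71 (95% confidence interval -1.27 to -0.16), with overlapping libraries and an adjusted p of 0.312. That difference did not pass the test. The call against naive ganglia held under every alternative run, with log2 fold changes from 2.91 to 3.29 at day 1, 2.85 to 3.16 at day 3 and 2.07 to 2.68 at day 7.

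A noncoding gene on the opposite strand, E230016M11Rik, shares 337 exonic bases with Gadd45a, which is 19.1% of the exonic bases of Gadd45a in the annotation. The sources used here do not state whether counting used strand, so reads in the shared stretch cannot be assigned. E230016M11Rik itself measured 6.98 to 8.56 RPKM at day 1, 7.66 to 8.47 at day 3 and 8.0 to 10.6 at day 7, against 10.7 to 11.8 in naive ganglia. It thus lay at lower values in the injured libraries, in the opposite direction to Gadd45a, but was not called (limma log2 fold changes -0.50, -0.49 and -0.27, adjusted p = 0.0656, 0.0528 and 0.445).

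Gadd45g, the family member best known from cytokine responses and neural differentiation, lies at chr13:51846678-51848468 on the plus strand. It measured 6.91, 4.57 and 4.797 RPKM at day 1, 4.33, 6.15 and 5.43 at day 3 and 2.70, 3.88 and 3.60 at day 7, against 1.68, 0.441 and 1.22 in naive ganglia. All 9 injured libraries were above the 3 naive libraries. The naive libraries held only 8 to 26 reads of Gadd45g, and their SD of 0.626 RPKM is large beside their mean of 1.11 RPKM, so the size of the rise is less certain than that of Gadd45a. On the log2 scale Gadd45g rose by 1.96 at day 1 (SE 0.25, limma adjusted p = 0.000507), 1.90 at day 3 (adjusted p = 0.000355) and 1.33 at day 7 (adjusted p = 0.00888). Gadd45g met the filter on low values only with its injured libraries, since naive replicate 2 lay at 0.441 RPKM. In the alternative with the filter at 5 RPKM, only injured libraries reached that level. It stayed called under every alternative, from 1.63 to 2.44 at day 1, 1.57 to 2.39 at day 3 and 1.00 to 1.76 at day 7. At day 7 the 3 libraries were below all 3 of day 1 and all 3 of day 3, with log2 differences of -0.63 (adjusted p = 0.379) and -0.57 (adjusted p = 0.947), which did not pass.

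Gadd45b, the member linked to activity-dependent demethylation in neurons, lies at chr10:80930073-80932204 on the plus strand and was near the limit of detection. It had 3, 0 and 4 reads at day 1, 5, 8 and 1 at day 3 and 1, 4 and 0 at day 7, against 1, 1 and 4 in naive ganglia. The groups overlapped. Its highest level was 0.400 RPKM, in day 3 replicate 2, and the 2 libraries without a read allow up to 0.162 and 0.174 RPKM (3 reads per library, counting error only). It did not pass the filter on low values, and a change of Gadd45b was not detectable at this depth.

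Gadd45a thus made up most of the RNA of this family in every library. Its share of the summed RPKM of the 3 genes was 88.0 to 92.5% in injured ganglia and 77.8 to 90.2% in naive ganglia. The ratio of Gadd45g to Gadd45a was 0.0781 to 0.136 in injured ganglia and 0.0986 to 0.244 in naive ganglia, and the ranges overlapped. Its log2 difference was -0.68 at day 1, -0.67 at day 3 and -0.66 at day 7 (exact permutation p = 0.3, 0.4 and 0.3).

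Cdkn1a, which encodes p21 and lies at chr17:29090976-29100727 on the plus strand, had its highest mean at day 3. It measured 13.04, 9.37 and 13.1 RPKM at day 1, 15.9, 22.7 and 21.5 at day 3 and 8.65, 17.3 and 19.5 at day 7, against 5.30, 6.12 and 5.98 in naive ganglia. Every injured library was above every naive one, and every day 3 library was above every day 1 library. The means were 11.8 ± 2.13, 20.02 ± 3.66 and 15.2 ± 5.74 RPKM after injury and 5.80 ± 0.436 RPKM in naive ganglia (SD, n = 3 each).

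The log2 fold change of Cdkn1a was 0.96 at day 1 (SE 0.21, limma adjusted p = 0.0206), 1.66 at day 3 (adjusted p = 0.000241) and 1.21 at day 7 (adjusted p = 0.00444). The day 1 call is the weakest of the 9. It did not pass with the values as deposited (adjusted p = 0.0721), without both libraries with muscle transcripts (0.0894), or when a single library was left out, namely naive replicate 1 (0.0894), naive replicate 3 (0.0656), replicate 1 of day 1 (0.108) or replicate 3 of day 1 (0.0752). The day 7 call did not pass without the libraries with muscle transcripts (log2 fold change 1.00, adjusted p = 0.0980), and the day 3 call held throughout. Day 3 exceeded day 1 by 0.70 on the log2 scale (SE 0.21) with an adjusted p of 0.228, which did not pass. That difference passed with weights per library (0.64, adjusted p = 0.0344), without day 7 replicate 1 (0.0454), and without naive replicate 1 together with day 7 replicate 1 (0.0453), the last chosen after the data were seen. A gene on the opposite strand, AC167363.2, shares 273 exonic bases with Cdkn1a in the annotation and was not analysed here.

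**Figure D2:**
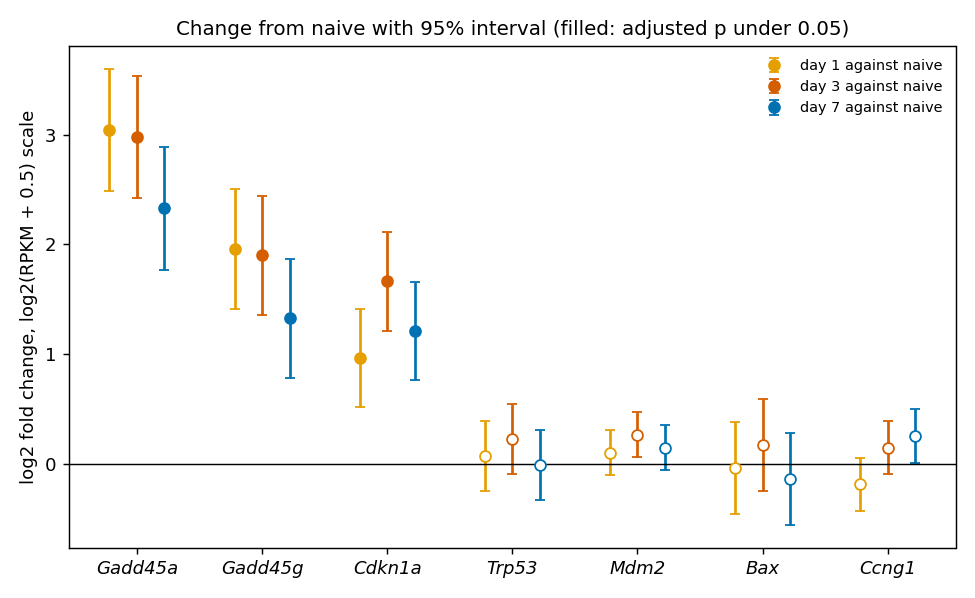
Log2 fold change over naive ganglia (vertical axis, log2(RPKM + 0.5) scale) of the 7 tested genes at days 1, 3 and 7, with 95% confidence intervals from the limma fit. Filled points passed an adjusted p of 0.05. Gadd45a lies highest at 3.04, 2.98 and 2.33, Cdkn1a is highest at day 3 at 1.66, and the other 4 genes without a call stay between -0.19 and 0.26.

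The ratio of Cdkn1a to Gadd45a put the levels of the 2 genes side by side. All 3 ratios tested were chosen after the values were seen. Cdkn1a over Gadd45a was 0.224, 0.279 and 0.213 at day 1, 0.364, 0.384 and 0.491 at day 3 and 0.399, 0.383 and 0.667 at day 7, against 0.684, 1.37 and 1.20 in naive ganglia. Every injured library was below every naive library, and every day 1 library was below every day 3 and day 7 library. The log2 difference from naive was -2.13 at day 1, -1.34 at day 3 and -1.15 at day 7. The exact permutation p was 0.1 for each, two-sided, which is the smallest that 3 libraries against 3 allow, and 0.36 after Benjamini-Hochberg adjustment over 18 ratio tests. These 18 tests include the ratio of Mdm2 to Trp53, with log2 differences from naive of 0.03 at day 1, 0.03 at day 3 and 0.16 at day 7. The lowest exact permutation p of these 3 was 0.4, at day 7.

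**Figure D3:**
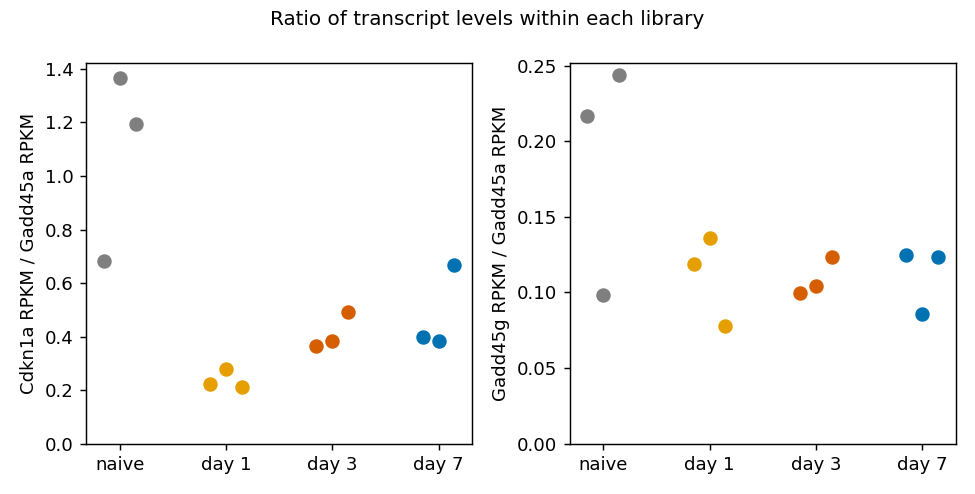
Ratios of RPKM between genes in every library (vertical axes, linear, no unit), in the order naive, day 1, day 3 and day 7. Points are libraries. Cdkn1a over Gadd45a lies at 0.213 to 0.279 at day 1 and at 0.364 to 0.667 at days 3 and 7, against 0.684 to 1.37 in naive libraries, while Gadd45g over Gadd45a overlaps between groups.

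Trp53 itself, at chr11:69580359-69591873 on the plus strand, showed no called change. It measured 14.8, 13.9 and 21.9 RPKM at day 1, 20.2, 20.4 and 16.4 at day 3 and 12.6, 16.5 and 19.3 at day 7, against 15.9, 15.3 and 16.0 in naive ganglia. The naive libraries lay close together, and only the day 3 libraries were all above them, which did not hold once libraries were scaled. Its log2 fold change was 0.07 at day 1 (95% confidence interval -0.25 to 0.39, limma adjusted p = 0.882), 0.23 at day 3 (-0.09 to 0.55, adjusted p = 0.481) and -0.01 at day 7 (-0.33 to 0.31, adjusted p = 0.992). The level of p53 protein was not measured here.

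Mdm2, at chr10:117688875-117710758 on the minus strand, is both the ligase of p53 and one of its classic targets. It measured 28.9, 28.1 and 29.2 RPKM at day 1, 31.1, 34.2 and 34.1 at day 3 and 29.2, 31.5 and 30.5 at day 7, against 28.2, 25.5 and 27.1 in naive ganglia. The day 3 and day 7 libraries were above all naive libraries, by a small margin. For Mdm2 the log2 fold change was 0.10 at day 1 (limma adjusted p = 0.707), 0.26 at day 3 (95% confidence interval 0.06 to 0.47, adjusted p = 0.139) and 0.15 at day 7 (adjusted p = 0.599). At day 3 it passed with the values as deposited (adjusted p = 0.0463) and with weights per library (adjusted p = 0.0301). These values rest on 1253 to 1723 reads per library.

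At day 3 and day 7, more of the 7 genes had RPKM values without overlap with naive than had calls. At day 1, 3 of the 7 lay above all naive libraries, where 11% of all tested genes did. At day 3 these were 5 of 7, with Trp53 and Mdm2 added, where 13.8% of all genes did. At day 7 they were 5 of 7, with Mdm2 and Ccng1 added, where 11% of all genes did. These counts use RPKM as deposited. On the scaled values of the fit, a check added after the data were seen, they were 4, 5 and 5 of 7, where 11.8%, 13% and 9.66% of all genes did. Scaling added Mdm2 at day 1, and at day 3 it removed Trp53 and added Ccng1.

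Ccng1, or cyclin G1, a p53 target that recruits a phosphatase to Mdm2, lies at chr11:40748552-40755311 on the minus strand and had the highest level of the 9 genes in naive ganglia. It measured 40.9, 36.9 and 45.2 RPKM at day 1, 47.5, 56.7 and 55.3 at day 3 and 51.3, 67.0 and 54.0 at day 7, against 50.3, 44.6 and 45.8 in naive ganglia. Day 1 values overlapped the low end of the naive libraries, and day 7 values were above all of them. Log2 fold changes of Ccng1 were -0.19 at day 1 (limma adjusted p = 0.494), 0.15 at day 3 (adjusted p = 0.570) and 0.26 at day 7 (adjusted p = 0.354). Between injured groups, day 7 exceeded day 1 without overlap by 0.44 on the log2 scale (95% confidence interval 0.20 to 0.69, adjusted p = 0.0991), and this passed with weights per library (0.48, adjusted p = 0.0232).

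Of the 2 death genes, Bax, whose product opens the outer mitochondrial membrane, lies at chr7:45461697-45466898 on the minus strand. It measured 1.80, 2.52 and 2.37 RPKM at day 1, 2.51, 2.91 and 2.73 at day 3 and 1.57, 2.21 and 2.62 at day 7, against 2.73, 1.58 and 2.81 in naive ganglia. The groups overlapped throughout. Its log2 fold changes were -0.04, 0.17 and -0.14 at the 3 times (limma adjusted p = 0.957, 0.726 and 0.869), from 22 to 40 reads per library. Gm45808, which shares 192 exonic bases on the same strand, was not analysed here.

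Bbc3, which encodes the BH3-only protein Puma, lies at chr7:16308393-16318205 on the plus strand and did not pass the filter on low values. It had 2, 0 and 5 reads at day 1, 1, 4 and 0 at day 3 and 6, 5 and 5 at day 7, against 7, 6 and 9 in naive ganglia. In RPKM the day 7 libraries overlapped the naive ones, while the day 1 and day 3 libraries lay below all naive libraries, at 0.141 RPKM or less against 0.181 to 0.30 RPKM. When genes of any level were tested, the limma adjusted p was 0.157 at day 1, 0.0818 at day 3 and 0.748 at day 7, so no change passed. The 2 libraries without a read allow up to 0.104 and 0.10 RPKM.

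Levels per gene length put the 9 genes in a different order after injury. In naive ganglia the order of mean RPKM was Ccng1, Mdm2, Trp53, Cdkn1a, Gadd45a, Bax, Gadd45g, Bbc3 and Gadd45b, with overlapping libraries between Cdkn1a and Gadd45a, between Bax and Gadd45g, and between Bbc3 and Gadd45b. At day 1 Gadd45a stood first at 51.1 RPKM and overlapped Ccng1, which was next at 41.0 RPKM. At day 3 it was second to Ccng1 with overlap. At day 7 it was second, below Ccng1 without overlap, and it overlapped Mdm2. Cdkn1a overlapped Trp53 at day 3 and day 7 and lay below it in naive ganglia and at day 1. Gadd45g was above Bax without overlap at all 3 injured times.

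No gene of the 7 was called between injured times by limma. Without a call, Cdkn1a, Mdm2 and Ccng1 were higher at day 3 than at day 1 in all libraries (3 of 7, where groups did not overlap for 15.3% of all genes in either direction). Between day 7 and day 1, Mdm2 and Ccng1 were higher and Gadd45g lower without overlap (3 of 7, against 14% of all genes). Between day 7 and day 3 only Gadd45g was, lower at day 7 (1 of 7, against 9.29%). On scaled values Mdm2 overlapped between day 7 and day 1, and Bax no longer overlapped between day 7 and day 3. The share of all genes called was 0.507% for day 3 against day 1, 0.972% for day 7 against day 1, and 0% for day 7 against day 3. In the last comparison 716 genes had an unadjusted p under 0.05, voom on recovered reads called 0, and the fit with no filter on low values called 4.

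The wider pathway was followed in 5 lists with 101 different genes, of which 82 were tested. At day 1 3 rose and 1 fell, which is 4.88% of the 82, where 3.43% of all genes tested were called. At day 3 4 rose and 0 fell, again 4.88%, against 5.67% of all genes. At day 7 2 rose and 0 fell, or 2.44%, against 2.92% of all genes. The median log2 fold changes over the 82 genes were 0.00, -0.01 and 0.01, beside -0.01, 0.00 and 0.00 over all genes tested. Under other settings the counts ranged from 1 to 9, 2 to 16 and 0 to 6, with the highest under weights per library.

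Among 30 other targets of p53, 22 were tested, and 1 rose at day 1, 1 at day 3 and none at day 7. The gene was Pmaip1, which encodes the BH3-only protein Noxa. It averaged 0.917 ± 0.436 RPKM at day 1, 0.937 ± 0.138 at day 3 and 0.777 ± 0.182 at day 7, against 0.0935 ± 0.0814 in naive ganglia (SD, n = 3 each), where it had 5, 0 and 6 reads. It passed the filter on low values only through injured libraries. Its log2 fold change was 1.22 at day 1 (limma adjusted p = 0.0295), 1.27 at day 3 (adjusted p = 0.0159) and 1.10 at day 7 (adjusted p = 0.0563). The size depends on how low values are handled, from 0.79 with a pseudocount of 1 to 3.8 with voom on recovered reads at day 1, and the day 1 call did not pass in 8 of 17 alternatives. It was lost without naive replicate 1, 2 or 3 (adjusted p = 0.0701, 0.123 and 0.0696) and without replicate 1 or 3 of day 1 (0.155 and 0.122), and the day 3 call without naive replicate 2 (0.0752) or replicate 1 or 3 of day 3 (0.0709 and 0.0549). The 21 remaining targets did not pass at day 1. Of these Zmat3, an RNA-binding protein, averaged 70.0 RPKM at day 1, 74.3 at day 3 and 74.1 at day 7, against 62.6 in naive ganglia. Rrm2b, the p53-inducible ribonucleotide reductase subunit, averaged 16.8, 18.1 and 18.5 RPKM, against 19.2 in naive ganglia.

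Of 18 genes acting on p53, 13 were tested and none passed at any of the 3 times, with medians of 0.03, -0.07 and -0.03. Mdm4, the relative of Mdm2 that blocks p53, averaged 41.8 RPKM at day 1, 38.6 at day 3 and 43.1 at day 7, against 40.9 in naive ganglia. Crebbp, an acetyltransferase and p53 coactivator, averaged 64.1, 55.5 and 60.3 RPKM, against 57.2 in naive ganglia.

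Of 18 genes of the G1 machinery, 17 were tested. The 1 that passed was Cdkn2b, an inhibitor of Cdk4 and Cdk6, which averaged 2.77 ± 0.245 RPKM at day 3 against 1.39 ± 0.503 in naive ganglia (SD, n = 3 each; log2 fold change 0.80, limma adjusted p = 0.0401). That call did not pass in 8 of 17 alternatives, among them those without naive replicate 2 (log2 fold change 0.62, adjusted p = 0.190), naive replicate 3 (0.108) or replicate 1, 2 or 3 of day 3 (0.121, 0.0761 and 0.124). Cdkn2b met the filter on low values only with its injured libraries, since naive replicate 2 lay at 0.898 RPKM. Rb1 and Rbl2, the pocket proteins through which p21 acts on E2F, averaged 28.4 and 19.0 RPKM at day 1, 28.5 and 19.3 at day 3 and 29.4 and 21.2 at day 7, against 28.9 and 21.3 in naive ganglia, with no call.

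Of 19 genes of the Bcl2 family and the mitochondrial death pathway, 16 were tested. Pmaip1 rose at day 1 and day 3, as above, and Bad fell at day 1. Bad, which encodes a BH3-only protein that binds Bcl2 relatives, averaged 23.7 ± 3.31 RPKM at day 1, 28.1 ± 2.16 at day 3 and 36.2 ± 9.65 at day 7, against 39.0 ± 2.22 in naive ganglia (SD, n = 3 each). Its log2 fold change at day 1 was -0.71 (limma adjusted p = 0.0175), and the call did not pass when replicate 2 or 3 of the naive group (adjusted p = 0.0910 and 0.0538) or replicate 1 or 3 of day 1 (0.110 and 0.0552) was left out. Diablo, an antagonist of caspase inhibitors, averaged 41.1, 46.8 and 40.1 RPKM, against 35.7 in naive ganglia, and Xiap, a caspase inhibitor, 39.9, 39.9 and 39.3 RPKM, against 44.5, both without a call.

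Of 19 partners of Gadd45 in the p38 and JNK pathways, the G2 checkpoint and DNA demethylation, 16 were tested and 2 rose at all 3 times. Tet3, which oxidises methylated cytosine, averaged 16.1 ± 1.42 RPKM at day 1, 13.5 ± 1.62 at day 3 and 11.998 ± 1.34 at day 7, against 7.05 ± 0.504 in naive ganglia (SD, n = 3 each). Its log2 fold changes were 1.15, 0.86 and 0.70 (limma adjusted p = 0.000156, 0.00100 and 0.00708). Mapk14, the p38 alpha kinase, averaged 20.8 ± 1.82, 23.1 ± 1.08 and 21.7 ± 2.49 RPKM at these times, against 14.5 ± 0.226 in naive ganglia (SD, n = 3 each). Its log2 fold changes were 0.51, 0.62 and 0.54 (limma adjusted p = 0.00908, 0.00140 and 0.00656). Without the libraries with muscle transcripts, Mapk14 did not pass at day 1 or day 7 (adjusted p = 0.0593 and 0.121), nor Tet3 at day 7 (0.0567), and without replicate 1 of day 1 Mapk14 did not pass at day 1 (0.0688). With the 2 groups alone in the fit, Mapk14 did not pass at day 7 (0.0555). Of its relatives among the JNK genes, Mapk10 averaged 68.5, 59.4 and 60.5 RPKM, against 73.3 in naive ganglia, and Mapk9 58.5, 60.8 and 56.98 RPKM, against 65.1, neither of which passed the test.

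**Figure D4:**
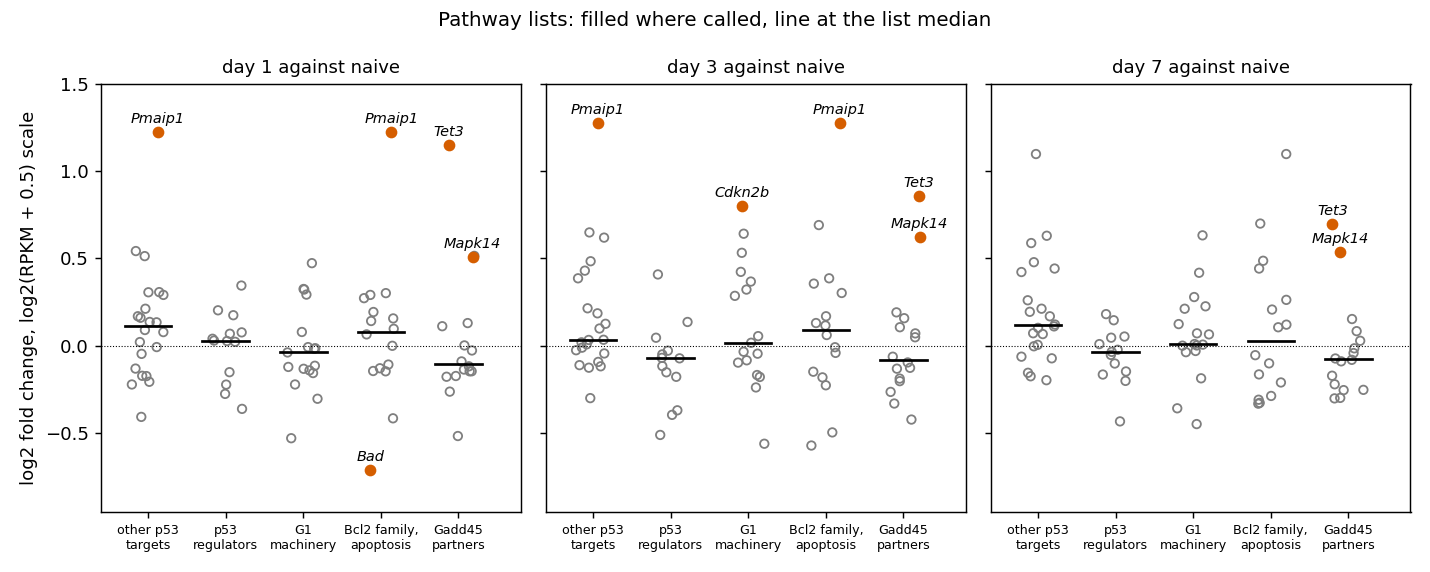
Log2 fold change over naive ganglia (vertical axis) of each tested gene of the 5 pathway lists (horizontal axis) at days 1, 3 and 7, 1 point per gene and list. Filled, named points passed an adjusted p of 0.05, lines are list medians, and Pmaip1 stands in 2 lists. Most genes lie near 0, with Pmaip1 highest at 1.22 and 1.27 at days 1 and 3, Tet3 next at 1.15 at day 1, and Bad at -0.71 at day 1.

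The genes with the pattern most like each of the 3 that rose were found by the root mean square difference over the 12 libraries in log2 value relative to the naive mean. For Gadd45a these were Sema6a (0.402), Smim3 (0.483) and Sox11 (0.521), a transcription factor of growing neurons. Sema6a, a transmembrane semaphorin, averaged 68.2, 82.5 and 61.8 RPKM at days 1, 3 and 7, against 10.2 in naive ganglia. With Pearson correlation as the measure, the 3 were Jun (r = 0.988), Myadm and Srxn1, and none was shared. For Gadd45g they were Tifa (0.304), an adaptor of NF-kappaB signalling, the neuropeptide gene Adcyap1 (0.312) and Igfbp3 (0.317), of which 2 were also nearest by correlation. Adcyap1 averaged 79.5, 67.7 and 38.4 RPKM, against 17.8 in naive ganglia. For Cdkn1a they were Plin2 (0.163), a lipid droplet coat protein, Tmem43 (0.229) and Tmem159 (0.260), of which 1 was shared. Plin2 averaged 16.4, 22.2 and 18.4 RPKM, against 7.07 in naive ganglia, with its highest mean at day 3, as for Cdkn1a. The 12 libraries share groups and depth, so these are descriptions.

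Over the 12 libraries, Gadd45a and Gadd45g had a Pearson r of 0.956 on the log2 scale, Gadd45a and Cdkn1a 0.845, and Gadd45g and Cdkn1a 0.781. Trp53 had r between 0.24 and 0.45 with each of the 3. Mdm2 had r of 0.663 with Gadd45a, 0.676 with Gadd45g and 0.717 with Cdkn1a. For Bax r was 0.0835, 0.243 and 0.183 with these genes, and for Ccng1 0.0955, 0.00528 and 0.372. The groups separate on Gadd45a, Gadd45g and Cdkn1a, so these values mostly restate the difference from naive ganglia and are given without a test.

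Markers of other cells moved at day 3 and day 7. Of 12 macrophage markers, 10 were tested, and 0 rose at day 1, 6 at day 3 and 6 at day 7. Their summed level was 42.0 to 45.8 RPKM at day 1, 70.4 to 116 at day 3 and 72.6 to 144 at day 7, against 39.1 to 52.98 in naive ganglia, with no marker at 0 in all libraries of a group. The 12 genes of dividing cells summed to 8.48 to 9.17 RPKM at day 1, 15.1 to 22.9 at day 3 and 15.04 to 16.3 at day 7, against 8.73 to 10.8 in naive ganglia. Of these 12, only 5 were tested, and 0 rose at day 1, 1 at day 3 and 0 at day 7. At day 1 the macrophage sums lay within the naive range and the sums of dividing cells overlapped it. The part of these cells in the higher Gadd45a, Gadd45g and Cdkn1a at any of the 3 times was not tested. Of 7 neutrophil markers 4 were tested without a call, but the summed level was 58.3 RPKM in day 3 replicate 3 and 33.5 and 29.9 RPKM in replicates 2 and 3 of day 7. It was 8.59 to 15.2 RPKM in the other injured libraries, against 15.02 to 17.7 RPKM in naive ganglia. The part of these cells in the results was not tested. Schwann cell and endothelial markers had no call at any of the 3 times, and T and B cell markers summed to 0.277 to 2.49 RPKM in all libraries. Of 12 neuron markers, 1 fell at day 3 and 1 at day 7, of 7 satellite glia markers 1 rose at day 1 and 1 at day 3, and of 6 fibroblast markers 1 fell at day 1.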

How the data were processed

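RNA from whole dorsal root ganglia was sequenced in 12 libraries, amplified with a low-input kit per the labels' protocols. The deposited values are RPKM per gene, made by the authors; reads were demultiplexed with bcl2fastq 2.17, and STAR, HTSeq, edgeR and limma with the mm10 build are listed per the submitters' processing notes, without roles. No source used here gives the annotation or the strand setting. RPKM steps gave whole reads within 0.05 of an integer for 20456 of 21597 detected genes (94.7%), hence the library sizes. Counting limits ignore PCR duplicates, since molecular identifiers are not mentioned.

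Libraries were scaled by trimmed means of log ratios (factors 0.909 to 1.09). Genes with at least 1 RPKM in at least 3 libraries were kept, and log2(RPKM + 0.5) was fitted with limma 3.58.1 in R 4.3.3 (statmod 1.5.0; trend, robust), with 1 mean per group, 8 residual degrees of freedom and Benjamini-Hochberg adjustment over 14195 genes. The model was tested on simulated reads whose spread was set in advance. It recovered 73% of changes of 1 log2 unit and 99% of changes of 2 log2 units between day 1 and naive, with 5% false calls. The simulated spread was set alike for all genes and groups. In the data the SD of Cdkn1a was 7.52% of the mean in naive ganglia and 37.8% at day 7. These rates therefore hold for the simulated reads and need not hold for each gene here. Levels and overlaps use RPKM as deposited. Single ratios were compared by exact permutation tests. Alternatives were other pseudocounts, filters and scalings, voom on recovered reads, weights per library, 2 groups alone, a replicate block, and libraries left out.

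The 9 genes and all lists were chosen with earlier results of these data known. Beside the 9 genes, the text names from each pathway list the genes called against naive (up to 6) and up to 2 uncalled ones with the highest mean level, plus the 3 genes nearest in pattern to each gene called.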

Additional observations from a re-analysis of the deposited data

How the results depend on the processing

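The 3 calls of Gadd45a and the 3 of Gadd45g held under all 18 alternatives run for each, as did that of Cdkn1a at day 3, and no direction of a called gene turned. Against naive ganglia, 487, 805 and 415 genes were called at days 1, 3 and 7. With weights per library these were 1844, 1954 and 831, while omission of the muscle libraries gave 277 and 165 at days 1 and 7; the 2 groups alone gave 258 at day 7. Leaving out single replicates gave 218 to 378, 445 to 614 and 235 to 522. For day 3 against day 1 (72 genes) voom gave 147, weights 349, omission of the muscle libraries 46 and leaving out single replicates 13 to 32. For day 7 against day 1 (138 genes) these were 238, 293, 41 and 54 to 119, with 27 from the 2 groups alone. Day 7 against day 3 (0 genes, 716 at unadjusted p under 0.05) gave 4 without a filter. Any difference (679 genes) gave 2105 with weights, 405 without the muscle libraries and 380 to 910 without single replicates. Of the 9 genes, 1 was called for day 3 against day 1 with weights and 1 without naive replicate 1 and day 7 replicate 1 (chosen after seeing the data), and 1 for day 7 against day 1 with weights. Cdkn1a was also called for day 3 against day 1 without day 7 replicate 1 alone. Of the pathway genes, 4, 4 and 2 were called at days 1, 3 and 7. Weights gave 9, 16 and 6, omission of the muscle libraries 2 at day 1 and 0 at day 7, voom 7 at day 3, the 2 groups alone 12 at day 3 and 1 at day 7, no filter 4 at day 7, and leaving out single replicates 1 to 4 at day 1 and 2 to 5 at day 3. The labels do not state whether replicate numbers pair the libraries. Same-numbered libraries of different groups had deviations correlated at -0.34 to 0.234, with 3 of 18 pairs over 0.1, and 4 of 12 libraries correlated best with their own number. These values show no sign of pairing but cannot settle it. With the replicate block, 31 genes were called for day 3 against day 1 and 91 for day 7 against day 1. The cause of these shifts was not tested. The depth of 13626893 to 17952865 reads limits Gadd45b and Bbc3, at 0 to 9 reads per library.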

Other observations

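The genes that rose shared their lowest library in part. In RPKM as deposited, replicate 2 was the lowest day 1 library for Gadd45a, Gadd45g, Cdkn1a, Atf3, Pmaip1, Tet3 and Mapk14, at 33.5 RPKM for Gadd45a and 57.4 RPKM for Atf3. Replicate 1 was the lowest day 7 library for all of these but Tet3, at 21.7 RPKM for Gadd45a and 44.1 RPKM for Atf3. At day 3 no library was lowest throughout, with replicate 1 lowest for Gadd45a, Gadd45g, Cdkn1a and Mapk14, replicate 3 for Atf3 and Tet3, and replicate 2 for Pmaip1. On scaled values replicate 3 was lowest instead for Gadd45g at day 1, for Pmaip1 at day 7, and for Gadd45a and Mapk14 at day 3. Summed neuron markers were also lowest in their group in replicate 2 of day 1 and replicate 1 of day 7, at 1242 RPKM and 970 RPKM. So were summed Schwann cell markers, at 884 and 845 RPKM, and satellite glia markers, at 337 and 355 RPKM. Macrophage and fibroblast sums were lowest in replicate 1 of day 7 but not in replicate 2 of day 1, and endothelial sums in neither. The part of ganglion composition in this was not tested.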
